A study of Rattus norvegicus with 9 samples.

Results

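Retinoic acid is the active form of vitamin A, and 9 of its genes were followed in the medial prefrontal cortex (mPFC) of Wistar Kyoto rats, a strain used to model depression-like behaviour. The 9 were taken by gene symbol and role: Cyp26b1 for breakdown, Aldh1a1, Aldh1a2 and Aldh1a3 for synthesis, Crabp1 for binding, and Rara, Rarb, Rxra and Rxrg as receptors. They are 9 of the 37991 genes in the deposited count table, and all 9 had enough counts to be among the 18047 genes tested. Their gene IDs in that table are 312495 (Cyp26b1), 24188 (Aldh1a1), 116676 (Aldh1a2), 266603 (Aldh1a3), 25061 (Crabp1), 24705 (Rara), 24706 (Rarb), 25271 (Rxra) and 83574 (Rxrg). Cyp26b1 leads the set because of its levels in these same libraries, so its values are given as a description with no test.

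Poly(A) RNA sequencing gave 9 libraries, 3 each from rats labelled K4, Ketamine and Control, all collected on day 15. K4 rats had received K4, a compound known here only by that code, through an intravenous cannula for 7 days, followed by 7 days of withdrawal. Ketamine rats had received ketamine under the skin for 7 days and were withdrawn for 7 days as well. Control rats had no treatment, so in K4 rats the compound, the cannula and the route cannot be told apart, and neither can ketamine and its injections in Ketamine rats. The labels state no dose, vehicle, age or sex, nor that the libraries of a group came from separate animals, so the spread behind the p-values may be partly technical.

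Retinol taken up by a cell is oxidised to retinal and then to retinoic acid, the second step being carried out by the ALDH1A enzymes. Retinoic acid binds RAR receptors, which pair with RXR receptors on DNA and switch their target genes, and CYP26 enzymes oxidise it for clearance, so a tissue's exposure depends on synthesis and breakdown together. In the brain the meninges are a known site of Aldh1a2, and retinoic acid from them takes part in forming the cortex.

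Retinoic acid receptors bind pairs of short repeats, and 3 promoters are shown because they belong to the clearing enzyme described here, to a receptor gene long known to answer to retinoic acid in mouse and human, and to the sister clearing enzyme Cyp26a1, known for the same. Each stretch runs 5′ to 3′ on the gene's own strand over 300 bases of RefSeq's GRCr8 assembly, from 250 bases before the start of the gene to 50 after it. Capitals mark both copies of the short unit in the direct repeat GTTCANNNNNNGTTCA, or in its reverse TGAACNNNNNNTGAAC. The windows are Cyp26b1 at chr4:118616127-118616426 on the minus strand, Rarb at chr15:11336142-11336441 on the plus strand and Cyp26a1 at chr1:244883572-244883871 on the plus strand.
Cyp26b1: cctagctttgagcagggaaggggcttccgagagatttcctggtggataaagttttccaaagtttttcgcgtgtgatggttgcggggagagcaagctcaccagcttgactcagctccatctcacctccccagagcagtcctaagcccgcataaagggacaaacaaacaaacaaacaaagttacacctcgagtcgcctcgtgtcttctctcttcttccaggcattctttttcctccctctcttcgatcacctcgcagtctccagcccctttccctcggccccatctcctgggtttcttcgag
Rarb: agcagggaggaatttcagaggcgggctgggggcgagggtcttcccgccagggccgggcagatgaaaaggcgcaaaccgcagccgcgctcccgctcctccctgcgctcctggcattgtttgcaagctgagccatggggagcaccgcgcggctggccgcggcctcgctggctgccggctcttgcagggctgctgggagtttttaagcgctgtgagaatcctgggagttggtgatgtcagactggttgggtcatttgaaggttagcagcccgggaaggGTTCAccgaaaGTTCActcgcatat
Cyp26a1: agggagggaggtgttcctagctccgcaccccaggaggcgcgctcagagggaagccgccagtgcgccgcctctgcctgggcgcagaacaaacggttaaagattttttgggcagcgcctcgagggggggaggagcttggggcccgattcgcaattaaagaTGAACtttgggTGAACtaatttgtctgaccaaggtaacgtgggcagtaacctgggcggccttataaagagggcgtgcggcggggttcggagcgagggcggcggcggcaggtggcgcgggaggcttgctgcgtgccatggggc
The repeat stood at base 276 of the Rarb window and, on the opposite strand, at base 159 of the Cyp26a1 window. It was absent from the Cyp26b1 window, which says only that these letters are not in those 300 bases. Of the 9 genes, all of which had a window, 1 (Rarb) held the repeat, against 140 of 33469 windows over the genome (0.418%). Since Rarb was already known to answer to retinoic acid, this count is no measure of enrichment. Single units were searched for as well. AGGTCA was in 0 of the 9 windows, against 16.2% over the genome, and AGTTCA in 1 (Rarb), against 14.5%.

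Library totals lay between 28495399 and 32735785 counts in K4, between 27122207 and 33837450 in Ketamine, and between 40863756 and 42731004 in Control. Log2 level, taken as each gene's deviation from its mean over the 9 libraries, also ran with transcript length. The slope per doubling was −0.020 to 0.002 in K4 and −0.066 to −0.018 in Ketamine, against 0.043 to 0.070 in Control. Such slopes compare the libraries only with each other, and a fit that takes this trend out was run beside each comparison. Over all genes, edgeR's quasi-likelihood test with a Benjamini-Hochberg adjusted p below 0.05 called 409 higher and 686 lower in K4 than in Control, which is 6.07% of those tested (2.27% higher and 3.8% lower). In Ketamine against Control it called 1254 higher and 1759 lower, or 16.7% (6.95% and 9.75%). Between K4 and Ketamine it called 0 (0%), where 1648 (9.13%) had an unadjusted p below 0.05 and DESeq2 called 70. The balance of higher and lower calls depended on scaling, though not in every setting. Upper quartile scaling gave 527 higher and 563 lower in K4, and 1587 higher and 1549 lower in Ketamine. The length fit gave 217 and 213 in K4. In Ketamine it gave 583 and 789, where 42.5% of the calls were higher, beside 41.6% in the fit as reported. Limma on log2(FPKM + 0.1) gave 305 and 132 in K4 and 1455 and 898 in Ketamine. K4 replicate 2 stood apart in the genes of the brain's covering membranes, and Control replicate 2 in glial and vessel markers, both described below with the values they touch.

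Cyp26b1, whose product oxidises retinoic acid and so ends its signal, had its highest levels in K4 libraries. Its normalised read counts were 22.1, 15.6 and 15.4 CPM (counts scaled to the library's normalised size) in K4, against 9.81, 8.05 and 8.22 CPM in Ketamine and 7.95, 5.98 and 6.21 CPM in Control. All 3 K4 libraries stood above every other library, while the lowest Ketamine library, at 8.05 CPM, lay just above the highest Control library, at 7.95 CPM. The reads behind these values numbered 455 to 744 in K4, 226 to 321 in Ketamine and 230 to 329 in Control, so Control reached similar counts from larger libraries.

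The group means were 17.7 ± 3.83 CPM in K4, 8.69 ± 0.975 CPM in Ketamine and 6.71 ± 1.08 CPM in Control (SD, n = 3 each). On the log2 scale K4 differed from Control by 1.40 (SE 0.16, 95% interval 1.05 to 1.74), a 2.63-fold difference. Ketamine differed from Control by 0.37 (SE 0.16, interval 0.02 to 0.73), or 1.29-fold. K4 differed from Ketamine by 1.02 (SE 0.16, interval 0.68 to 1.37), or 2.03-fold. These intervals give the uncertainty of each difference under the fit and are not read as a test, since the gene was picked from the same libraries. Both drug differences are measured from the same 3 Control libraries.

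**Figure D1:**
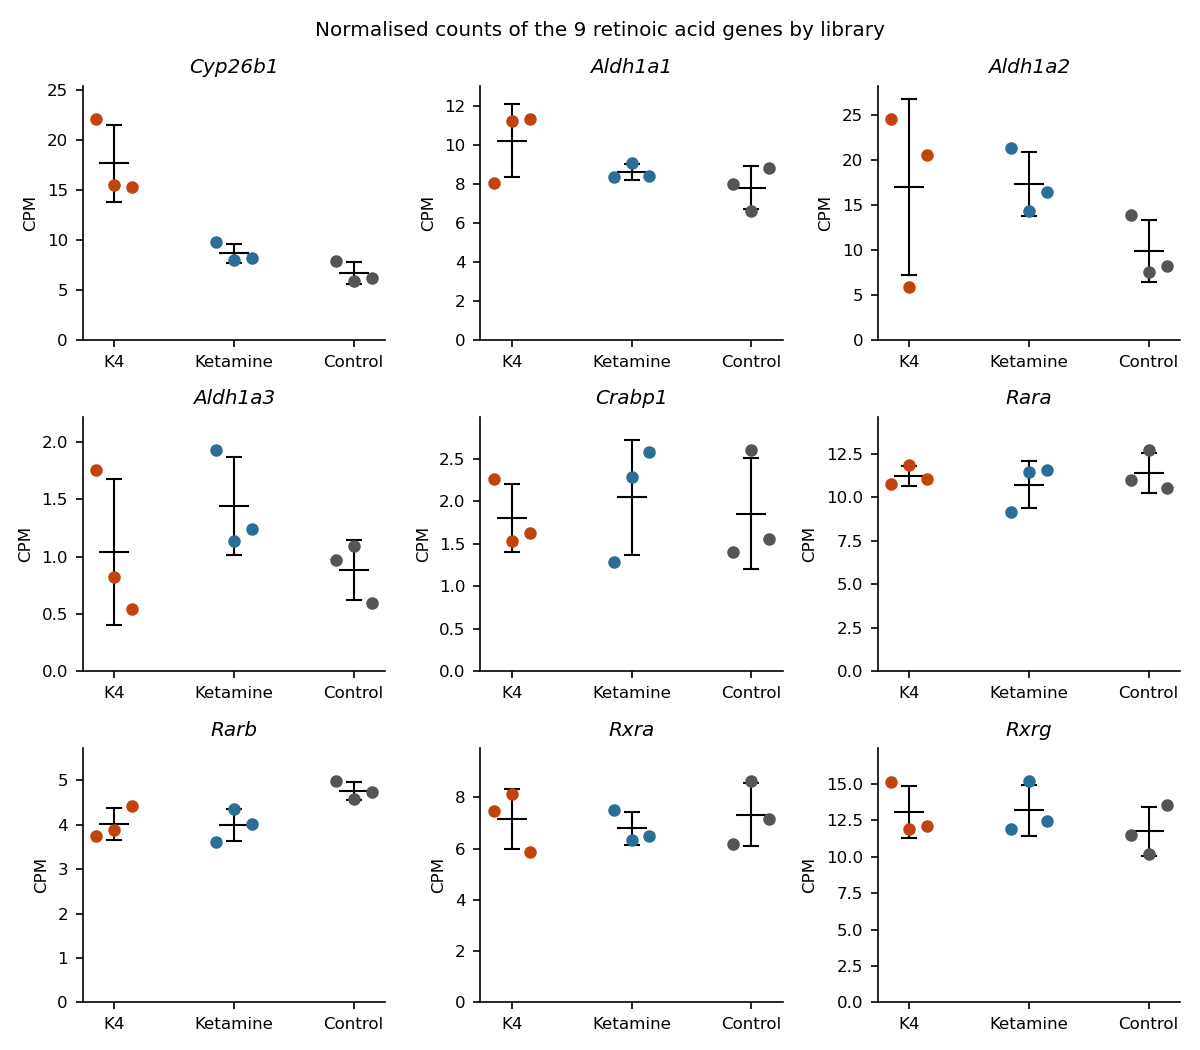
Normalised read counts (CPM, vertical axes from 0) of the 9 genes in each library, with K4, Ketamine and Control from left to right. Points are libraries, and bars show the mean ± SD of 3; the K4 points of Cyp26b1 lie between 15.4 and 22.1 CPM, above all 6 others, while the K4 points of Aldh1a2 spread from 5.99 to 24.6 CPM.

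The Cyp26b1 difference was not carried by 1 library. Leaving out each library in turn gave 1.20 to 1.55 for K4 against Control, 0.28 to 0.52 for Ketamine against Control and 0.83 to 1.12 for K4 against Ketamine. With the length trend taken out the 3 values were 1.47, 0.49 and 0.98. On the deposited TPM scale, which takes out transcript length and library size, the levels were 10.3, 6.87 and 7.22 TPM in K4, against 4.36, 3.66 and 3.60 TPM in Ketamine and 3.31, 2.14 and 2.81 TPM in Control, and on this scale too each drug group lay above Control.

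Levels can be compared between the 9 genes on the TPM scale. In K4, Cyp26b1 ranked 5 of 9 at 8.14 ± 1.91 TPM, where its range overlapped those of Aldh1a1 above it (10.2 ± 1.78 TPM) and of Rara below it (7.83 ± 0.283 TPM). In Ketamine it ranked 7 at 3.87 ± 0.421 TPM, overlapping Crabp1 above it (5.48 ± 1.83 TPM) and clear of Rarb below it (2.61 ± 0.272 TPM). In Control it ranked 8 at 2.75 ± 0.587 TPM, overlapping Rarb just above it (2.86 ± 0.399 TPM) and clear of Aldh1a3, the lowest of the 9 (1.03 ± 0.216 TPM). Aldh1a2 stood highest in both drug groups, at 16.1 ± 9.49 TPM in K4 and 15.7 ± 3.10 TPM in Ketamine, overlapping Rxrg in each. In Control the highest was Rxrg at 11.1 ± 2.78 TPM, and the ranges of Rxrg, Rxra, Aldh1a2, Aldh1a1 and Rara each overlapped the next.

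**Figure D2:**
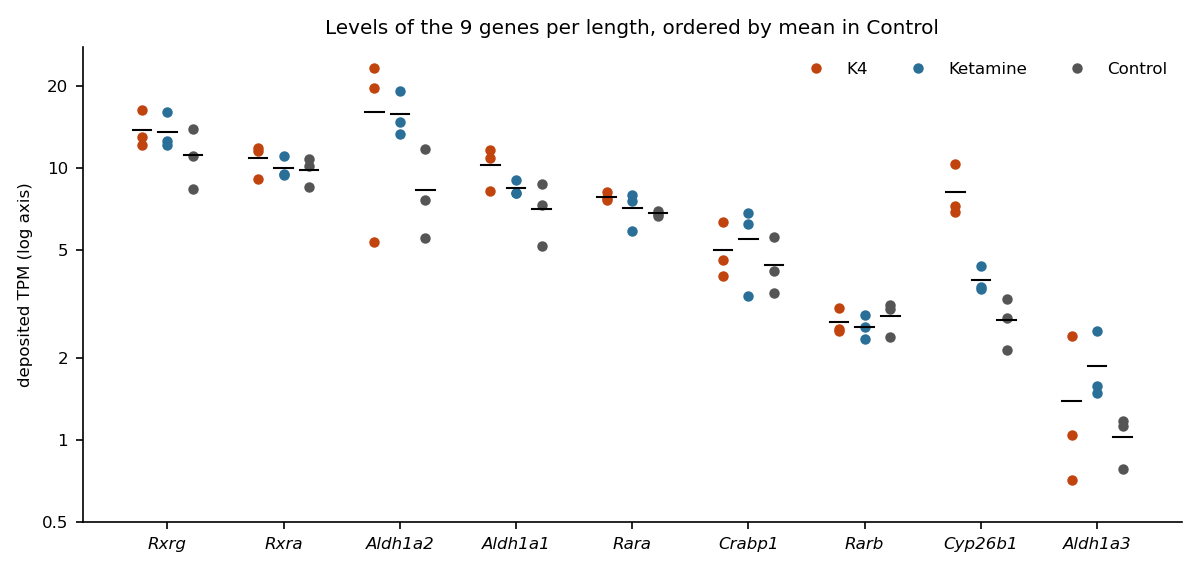
Deposited TPM of the 9 genes (log axis), ordered by their mean in Control, with K4, Ketamine and Control from left to right for each gene. Points are libraries and short lines are group means; Cyp26b1 lies near 8.14 TPM in K4, against 3.87 TPM in Ketamine and 2.75 TPM in Control.

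Setting breakdown beside synthesis, Cyp26b1 TPM as a ratio to the summed TPM of the 3 Aldh1a genes was 0.304, 0.398 and 0.226 in K4, against 0.146, 0.154 and 0.148 in Ketamine and 0.164, 0.181 and 0.164 in Control. The ratio was higher in every K4 library than in any other, and lower in every Ketamine library than in any Control library. The summed Aldh1a level itself was 34.0, 17.2 and 32.0 TPM in K4, 29.8, 23.8 and 24.3 TPM in Ketamine and 20.2, 11.8 and 17.1 TPM in Control. Of this sum Aldh1a2, set beside meningeal markers below, made up 23.3, 5.35 and 19.6 TPM in K4. The highest ratio, 0.398, was that of K4 replicate 2, which had less Aldh1a2 than any other library. In Ketamine both Cyp26b1 and the summed Aldh1a level lay above every Control library. The ratio takes in Cyp26b1 and is a description of RNA, not of enzyme activity.

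The other 8 genes were tested with the same fit, though the set was assembled with earlier results of these data known and the tests are no independent support. None of the 8 was called in any of the 3 comparisons, and DESeq2 called none either. At an unadjusted p below 0.05 there was 1 of 8 for K4 against Control (Aldh1a1), 0 for Ketamine against Control and 0 for K4 against Ketamine, beside 23.5%, 31.3% and 9.13% of all genes. The median log2 difference of the 8 was 0.07 for K4 and 0.14 for Ketamine, beside −0.005 and −0.002 over all genes tested.

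**Figure D3:**
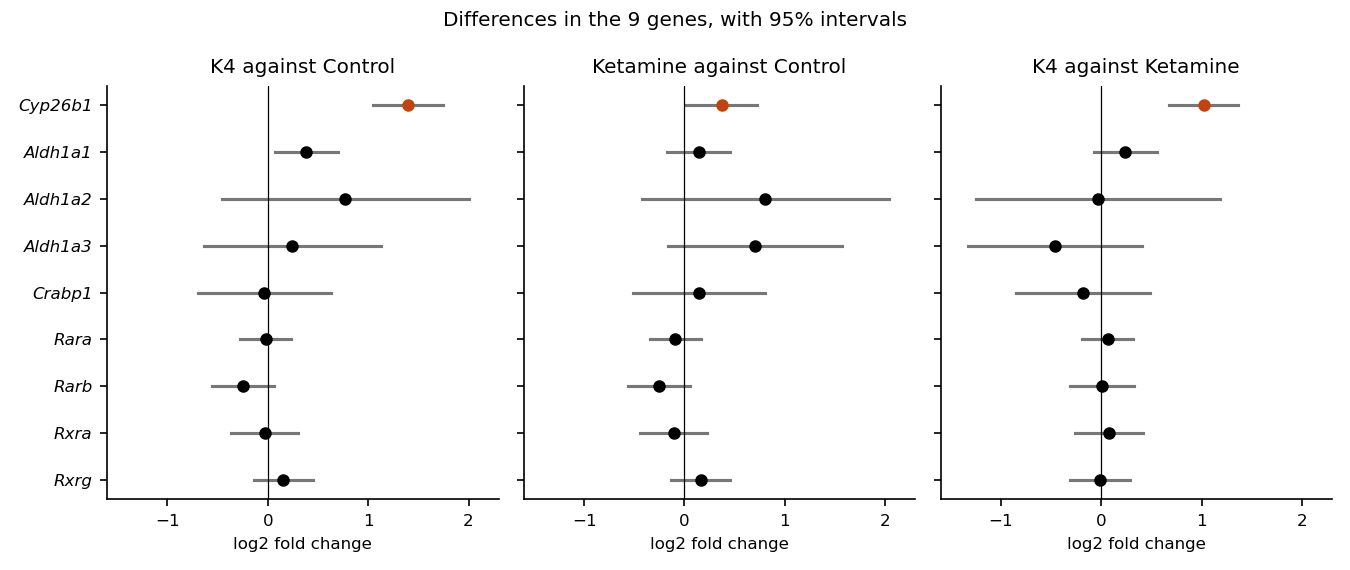
Log2 fold changes of the 9 genes in K4 against Control, Ketamine against Control and K4 against Ketamine, with 95% intervals as bars. Cyp26b1, in colour, is a description without a test, at 1.40, 0.37 and 1.02; the interval of Aldh1a2 is the widest in each panel.

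Aldh1a1, a retinal dehydrogenase also known as a marker of some dopamine neurons, had 8.07, 11.3 and 11.3 CPM in K4, against 8.38, 9.12 and 8.45 CPM in Ketamine and 8.02, 6.66 and 8.83 CPM in Control. The groups overlapped through K4 replicate 1, and the other 2 K4 libraries were above all Ketamine and Control libraries. The log2 difference was 0.38 for K4 against Control (interval 0.07 to 0.70, adjusted p = 0.134, edgeR) and 0.14 for Ketamine against Control (−0.18 to 0.46, adjusted p = 0.558). Across the alternatives listed in the closing section the K4 difference lay between 0.28 and 0.53. The 4 dopamine neuron markers summed to 4.76 to 7.88 CPM in K4, against 4.10 to 6.13 CPM in Ketamine and 6.36 to 10.8 CPM in Control. Over all 9 libraries Ddc had 1421 reads, Th 567, Slc18a2 66 and Slc6a3, the dopamine transporter gene, 2, and none of the 3 tested was called in either drug group against Control. Their part in the Aldh1a1 values was not tested.

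Aldh1a2, the enzyme that makes most retinoic acid in the embryo, had 24.6, 5.99 and 20.6 CPM in K4, against 21.3, 14.4 and 16.5 CPM in Ketamine and 13.9, 7.64 and 8.31 CPM in Control. Every Ketamine library stood above every Control library, while K4 held both the highest and the lowest value of all 9. The log2 difference was 0.77 for K4 against Control (interval −0.46 to 2.01, adjusted p = 0.427) and 0.81 for Ketamine against Control (−0.43 to 2.04, adjusted p = 0.348). Without K4 replicate 2 the difference was 1.18 for K4 (adjusted p = 0.0427) and 0.80 for Ketamine (adjusted p = 0.0346). A fit of the Ketamine and Control libraries alone gave 0.81 (adjusted p = 0.0445). Over all alternatives the adjusted p lay between 0.0427 and 0.733 for K4 and between 0.0346 and 0.574 for Ketamine.

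Markers of meningeal fibroblasts, the cells of the membranes over the cortex, varied with Aldh1a2. The 10 markers summed to 307, 84.9 and 250 CPM in K4, against 288, 185 and 221 CPM in Ketamine and 187, 106 and 121 CPM in Control, and none of the 10 was at 0. None of the 10 was called either, with 8 higher in K4 and 9 higher in Ketamine than in Control by sign alone and medians of 0.67 and 0.66. At an unadjusted p below 0.05 there were 3 of 10 in K4 and 2 of 10 in Ketamine, beside 23.5% and 31.3% of all genes. Their part in the Aldh1a2 differences was not tested. The 7 choroid plexus markers summed to 9.53, 2.54 and 9.32 CPM in K4, against 7.58, 5.63 and 6.25 CPM in Ketamine and 6.11, 2.05 and 4.13 CPM in Control, so K4 replicate 2 was low in both lists. Folr1, Otx2 and Clic6 had no read in any library and Ttr had 9 reads in all, while Aqp1 had 848, Kcnj13 836 and Kl 108. The 3 with enough counts were not called, and all 3 had a positive sign in each drug group against Control (medians 0.76 in K4 and 0.52 in Ketamine).

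Aldh1a2 amounted to between 6.85% and 8.21% of the meningeal sum in all 9 libraries, although its own level varied 4.10-fold. Crabp2, a retinoic acid carrier not among the 9 genes, did likewise at 2.45% to 3.23% while varying 3.95-fold. Cyp26b1 varied more widely against the sum: it was 7.20%, 18.3% and 6.13% of the sum in K4, 3.41%, 4.36% and 3.72% in Ketamine and 4.26%, 5.64% and 5.12% in Control. K4 replicate 2 had the lowest meningeal sum of all libraries (84.9 CPM) and 15.6 CPM of Cyp26b1, and without it the K4 difference from Control in Cyp26b1 was 1.48. In bulk tissue, more cells of a type and more RNA per cell cannot be told apart.

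**Figure D4:**
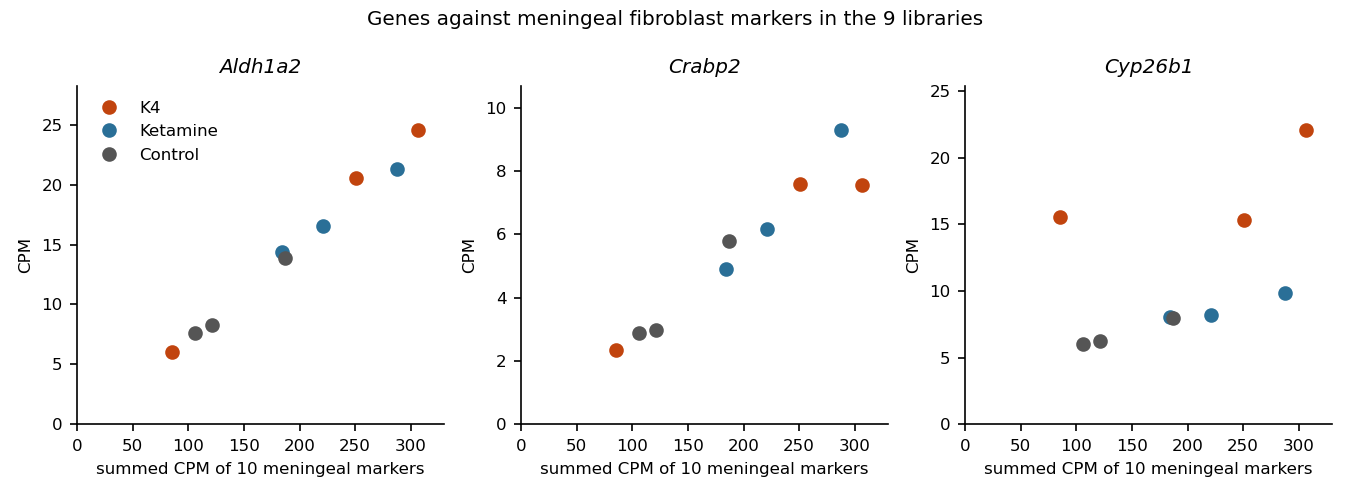
CPM of Aldh1a2, Crabp2 and Cyp26b1 (vertical axes) against the summed CPM of 10 meningeal fibroblast markers (horizontal axes), 1 point per library, coloured by group. Aldh1a2 stays between 6.85% and 8.21% of the sum in all 9 libraries, while the K4 library at 84.9 CPM of the sum holds 15.6 CPM of Cyp26b1.

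Aldh1a3, the third enzyme of the family, was the scarcest of the 9 genes, with 16 to 63 reads a library. It had 1.75, 0.825 and 0.540 CPM in K4, against 1.93, 1.14 and 1.24 CPM in Ketamine and 0.967, 1.09 and 0.594 CPM in Control. Ketamine stood above Control without overlap, whereas K4 spanned the Control range. The log2 difference was 0.24 for K4 (interval −0.64 to 1.13, adjusted p = 0.769) and 0.70 for Ketamine (−0.16 to 1.57, adjusted p = 0.257).

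Crabp1, a cytosolic carrier that holds retinoic acid and passes it to CYP26 enzymes, had 2.26, 1.53 and 1.62 CPM in K4, against 1.28, 2.28 and 2.57 CPM in Ketamine and 1.40, 2.60 and 1.56 CPM in Control. The 3 groups overlapped throughout. Its log2 difference was −0.04 for K4 against Control (interval −0.70 to 0.63, adjusted p = 0.96) and 0.15 for Ketamine against Control (−0.51 to 0.80, adjusted p = 0.788), which in folds is 0.617 to 1.54 and 0.701 to 1.74.

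Rarb, the receptor gene whose promoter carries the repeat shown above, was lower in both drug groups by its library values but was not called. It had 3.74, 3.88 and 4.42 CPM in K4, against 3.61, 4.34 and 4.02 CPM in Ketamine and 4.98, 4.58 and 4.72 CPM in Control. Every drug library lay below every Control library in CPM, as did 14.2% of all genes tested for K4 and 18.1% for Ketamine. The log2 difference was −0.25 for K4 (interval −0.55 to 0.06, adjusted p = 0.321) and −0.26 for Ketamine (−0.56 to 0.05, adjusted p = 0.246). On the TPM scale the groups overlapped, at 2.72 ± 0.302 TPM in K4, 2.61 ± 0.272 TPM in Ketamine and 2.86 ± 0.399 TPM in Control.

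The remaining receptors overlapped Control in CPM. Rara, the receptor that is most widely expressed, had 10.7, 11.9 and 11.1 CPM in K4, against 9.17, 11.4 and 11.6 CPM in Ketamine and 11.0, 12.7 and 10.5 CPM in Control, with a log2 difference of −0.02 for K4 (interval −0.27 to 0.23, adjusted p = 0.932) and −0.09 for Ketamine (−0.34 to 0.16, adjusted p = 0.643). Its K4 direction turned with the scale: it was 7.83 ± 0.283 TPM in K4 and 6.80 ± 0.144 TPM in Control, and limma on log2(FPKM + 0.1) gave 0.08 (adjusted p = 0.768). On that scale the K4 differences of Rxra (0.016, adjusted p = 0.963) and Crabp1 (0.046, adjusted p = 0.945) also had a positive sign.

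Rxra, a partner of the RAR receptors and of several others, had 7.45, 8.13 and 5.88 CPM in K4, against 7.52, 6.34 and 6.51 CPM in Ketamine and 6.19, 8.63 and 7.17 CPM in Control. Its log2 difference was −0.03 for K4 (interval −0.37 to 0.30, adjusted p = 0.926) and −0.11 for Ketamine (−0.44 to 0.23, adjusted p = 0.679). Rxrg, the RXR form known from striatum and other restricted regions, had 15.1, 11.9 and 12.1 CPM in K4, against 11.9, 15.2 and 12.5 CPM in Ketamine and 11.5, 10.2 and 13.5 CPM in Control. Its log2 difference was 0.15 for K4 (interval −0.14 to 0.45, adjusted p = 0.542) and 0.16 for Ketamine (−0.13 to 0.46, adjusted p = 0.449). The 3 groups overlapped for both genes.

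Between K4 and Ketamine, Cyp26b1 was the single gene of the 9 whose libraries did not overlap, as was the case for 17.8% of all genes tested (9.49% higher and 8.29% lower). The other 8 log2 differences ran from −0.46 for Aldh1a3 (interval −1.33 to 0.41, adjusted p = 0.771) to 0.24 for Aldh1a1 (−0.07 to 0.56, adjusted p = 0.658). Among the receptors the intervals were narrow, that of Rarb running from −0.31 to 0.32 around 0.01 and that of Rara from −0.19 to 0.32 around 0.07. Those of Aldh1a2 (−1.25 to 1.18) and Crabp1 (−0.85 to 0.49) were wide: the first holds a difference as large as that of Cyp26b1. Against Control, 27.5% of all genes did not overlap for K4 (13.3% higher), and of the 9 these were Cyp26b1 above and Rarb below. For Ketamine it was 35% of all genes (16.9% higher), and of the 9 Cyp26b1, Aldh1a2 and Aldh1a3 above and Rarb below.

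Markers of other cell types were set beside Cyp26b1. The 9 deep-layer cortical neuron markers summed to 201 to 236 CPM in K4, against 176 to 187 CPM in Ketamine and 162 to 191 CPM in Control, none of them at 0, so K4 stood above both groups as it did for Cyp26b1. Of these 9, the cell-cycle inhibitor gene Rprm (log2 difference 1.07, adjusted p = 0.00624) and the synaptotagmin gene Syt6 (0.95, adjusted p = 0.0294) rose in K4 against Control, and Syt6 fell in Ketamine (−0.84, adjusted p = 0.0315). Striatal neuron markers summed to 210 to 229 CPM in K4, against 202 to 204 CPM in Ketamine and 190 to 212 CPM in Control. Of these 8, 3 were called higher in K4 and 1 in Ketamine (2 and 0 with the length trend taken out). Over all genes 2.27% and 6.95% were called higher. By sign alone, 4 of the 8 striatal markers were higher than Control in K4 (median log2 difference 0.07) and 2 of 8 in Ketamine (median −0.09). Their part in the Cyp26b1 values was not tested.

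Control replicate 2 stood apart from the other 2 Control libraries in the glial and vessel lists. To set beside the calls that follow, 3.8% of all genes were called lower in K4 and 9.75% in Ketamine. With the length trend taken out, 2.38% and 7.6% of all genes were called in either direction. Astrocyte markers summed to 3761 to 4300 CPM in K4, against 3685 to 3908 CPM in Ketamine and 4602, 6465 and 4086 CPM in the 3 Control libraries, with 2 of 8 called lower in K4 and 5 of 8 in Ketamine, and 1 and 2 with the length trend taken out. Endothelial and mural markers summed to 235 to 273 CPM in K4, against 195 to 222 CPM in Ketamine and 334, 404 and 277 CPM in Control, with 3 of 8 called lower in each (2 and 3 with the length trend taken out). Microglia markers summed to 236 to 255 CPM in K4, against 219 to 234 CPM in Ketamine and 262, 349 and 238 CPM in Control, with 1 of 6 called lower in K4 and 3 in Ketamine (1 and 2). Oligodendrocyte precursor markers summed to 164 to 195 CPM in K4, against 150 to 166 CPM in Ketamine and 233, 310 and 198 CPM in Control, with 1 of 5 called lower in K4 and 4 in Ketamine (0 and 2). Without Control replicate 2 the Cyp26b1 difference was 1.32 for K4 and 0.30 for Ketamine against Control, none of the other 8 genes was called, and the K4 differences of Rara (0.06), Rxra (0.10) and Crabp1 (0.28) had a positive sign.

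Oligodendrocyte markers summed to 2023 to 2710 CPM in K4, against 1422 to 1838 CPM in Ketamine and 1569 to 2539 CPM in Control, so K4 stood above Ketamine as it did for Cyp26b1. All 6 had a positive sign in K4 against Control, and 1 was called higher (0 with the length trend taken out). Claustrum and endopiriform markers summed to 310 to 326 CPM in K4, against 321 to 342 CPM in Ketamine and 354 to 357 CPM in Control, with 0 of 6 called in K4 (3 at an unadjusted p below 0.05 by edgeR) and 2 called lower in Ketamine. Interneuron markers summed to 506 to 545 CPM in K4, against 508 to 548 CPM in Ketamine and 482 to 551 CPM in Control, with 0 of 8 called in K4 (3 at an unadjusted p below 0.05) and 2 higher and 1 lower in Ketamine. Excitatory neuron markers, which define the sampled cortex, summed to 3153 to 3296 CPM in K4, 3168 to 3323 CPM in Ketamine and 3079 to 3297 CPM in Control, with 0 of 6 called in K4 (3 at an unadjusted p below 0.05) and, in Ketamine, Nrgn called higher and Camk2a and Tbr1 called lower. Over all genes, 2.27% were called higher and 3.8% lower in K4, and 6.95% and 9.75% in Ketamine. An unadjusted p below 0.05 was found for 23.5% of all genes in K4. The part of these marker lists in the values of the 9 genes was not tested.

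The wider retinoid pathway was read from a list of 56 other genes, of which 44 had enough counts to be tested. For K4 against Control 3 of the 44 were called, or 6.82% beside 6.07% of all genes. For Ketamine against Control 10 were called, or 22.7% beside 16.7%. Between K4 and Ketamine 0 were called, as over all genes. There 10 of the 44 had an unadjusted p below 0.05 by edgeR, beside 9.13% of all genes. DESeq2 called 1 (Nrgn, lower), beside 61 higher and 9 lower over all genes. The median log2 difference of the 44 was 0.04 for K4 and 0.07 for Ketamine.

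In uptake and storage, Dgat1, an acyltransferase that can store retinol as esters as well as make triglycerides, had 23.5, 22.6 and 24.4 CPM in K4, against 23.2, 22.8 and 22.9 CPM in Ketamine and 18.5, 19.2 and 18.6 CPM in Control. It rose in both K4 (log2 difference 0.32, adjusted p = 0.0222) and Ketamine (0.29, adjusted p = 0.0148), with no overlap with Control. Rbp4, the carrier of retinol in blood, had 27.0, 15.8 and 24.1 CPM in K4, against 28.3, 23.0 and 25.8 CPM in Ketamine and 18.0, 12.7 and 14.7 CPM in Control. Rbp4 rose in Ketamine (0.77, adjusted p = 0.0195) and differed by 0.56 in K4 (adjusted p = 0.105), where replicate 2 lay inside the Control range. With the length trend taken out, where 2.38% of all genes were called for K4 and 7.6% for Ketamine, neither gene passed, at 0.28 and 0.22 for Dgat1 (adjusted p = 0.0557 in K4 and 0.0772 in Ketamine) and 0.59 for Rbp4 in Ketamine (adjusted p = 0.106). Dgat1 also missed the threshold in K4 without Control replicate 1 or K4 replicate 1 or 3 (adjusted p up to 0.0917) and in Ketamine without Ketamine replicate 2 (adjusted p = 0.0532). Rbp4 missed it in Ketamine without Control replicate 2 or 3 or Ketamine replicate 1 or 3 (adjusted p up to 0.0763), and passed in K4 without K4 replicate 2 (0.76, adjusted p = 0.0304).

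The other clearing enzymes were scarce. Cyp26a1 had 1.54, 1.22 and 0.405 CPM in K4, against 1.22, 0.962 and 0.579 CPM in Ketamine and 0.943, 0.598 and 0.915 CPM in Control, and its log2 difference for K4 was 0.38 (interval −0.56 to 1.31, adjusted p = 0.652). Cyp26c1 had 0 to 11 reads a library, and its difference for Ketamine against Control was 1.26 (interval −0.83 to 3.34, adjusted p = 0.409). In the redox step between retinol and retinal none of 10 tested genes was called, the smallest p being that of the retinol dehydrogenase Rdh12 for K4 against Ketamine (1.16, adjusted p = 0.506). Of the binding proteins, Fabp5, which can carry retinoic acid to another receptor, differed by 0.06 in K4 (adjusted p = 0.736) and 0.20 in Ketamine (adjusted p = 0.173), passing there only without Control replicate 2 (0.31, adjusted p = 0.0228) among the fits with 1 library left out.

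Receptor coregulators held every lower call of the list, 2 of 9 in K4 and 6 of 9 in Ketamine. Over all genes, 3.8% were called lower in K4 and 9.75% in Ketamine. Crebbp, a histone acetyltransferase recruited by many receptors, fell in K4 (−0.34, adjusted p = 0.0117) and in Ketamine (−0.35, adjusted p = 0.00303), and Ncor1, a corepressor, fell in K4 (−0.23, adjusted p = 0.0486) and in Ketamine (−0.43, adjusted p = 0.00133). In Ketamine the coactivator genes Ncoa1 (−0.32, adjusted p = 0.00431), Ncoa2 (−0.61, adjusted p = 0.000949), Ncoa3 (−0.48, adjusted p = 0.00288) and Ep300 (−0.32, adjusted p = 0.00998) fell as well, making 6 of 9 coregulators. These 9 had a median transcript length of 9.40 kb, beside 2.93 kb over all genes. With the length trend taken out none of the 9 passed in K4, and in Ketamine Ncoa2 (−0.42, adjusted p = 0.00681) and Ncoa3 (−0.32, adjusted p = 0.0384) did. That fit called 2.38% of all genes in either direction for K4 and 7.6% for Ketamine. With 1 library left out, Ncor1 in K4 missed the threshold in all fits except those without Control replicate 2 or Ketamine replicate 1 (adjusted p up to 0.182). Crebbp in K4 missed it without K4 replicate 1 (adjusted p = 0.0583), and Ep300 in Ketamine without Ketamine replicate 2 or 3 (adjusted p up to 0.0607). Ncoa2 passed in K4 without Control replicate 2 or Ketamine replicate 1 (adjusted p from 0.0215), and Ncoa1 without Ketamine replicate 1 (adjusted p = 0.0474).

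Among the other receptors, Nr2f1, an orphan receptor that can compete for retinoic acid response elements, had 76.9 ± 5.00 CPM in Ketamine, against 63.5 ± 4.29 CPM in Control, and rose (0.28, adjusted p = 0.0186). It was 64.7 ± 3.48 CPM in K4, which differed from Control by 0.03 (adjusted p = 0.858). Of 9 tested genes listed as answering to retinoic acid, 1 was called in Ketamine (16.7% of all genes) and 0 in K4 (6.07%). The called gene was Nrgn, a calmodulin-binding protein gene and excitatory neuron marker. Nrgn rose in Ketamine (0.46, adjusted p = 0.00106) and differed by 0.22 in K4 (adjusted p = 0.067). By edgeR, 4 of the 9 had an unadjusted p below 0.05 in K4 (23.5% of all genes) and 2 in Ketamine (31.3%). By sign, 6 of the 9 were higher in K4. Tgm2 differed most there (1.00, interval 0.36 to 1.65, adjusted p = 0.0691), with overlapping libraries. DESeq2 called Cbln2, Nrgn and Tgm2 higher in K4. Both Nr2f1 and Nrgn passed in Ketamine with the length trend taken out (0.26 and 0.34). Nr2f1 missed the threshold without Ketamine replicate 1 or 3 (adjusted p up to 0.0724), and Nrgn passed in K4 without Control replicate 3 (adjusted p = 0.0324).

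**Figure D5:**
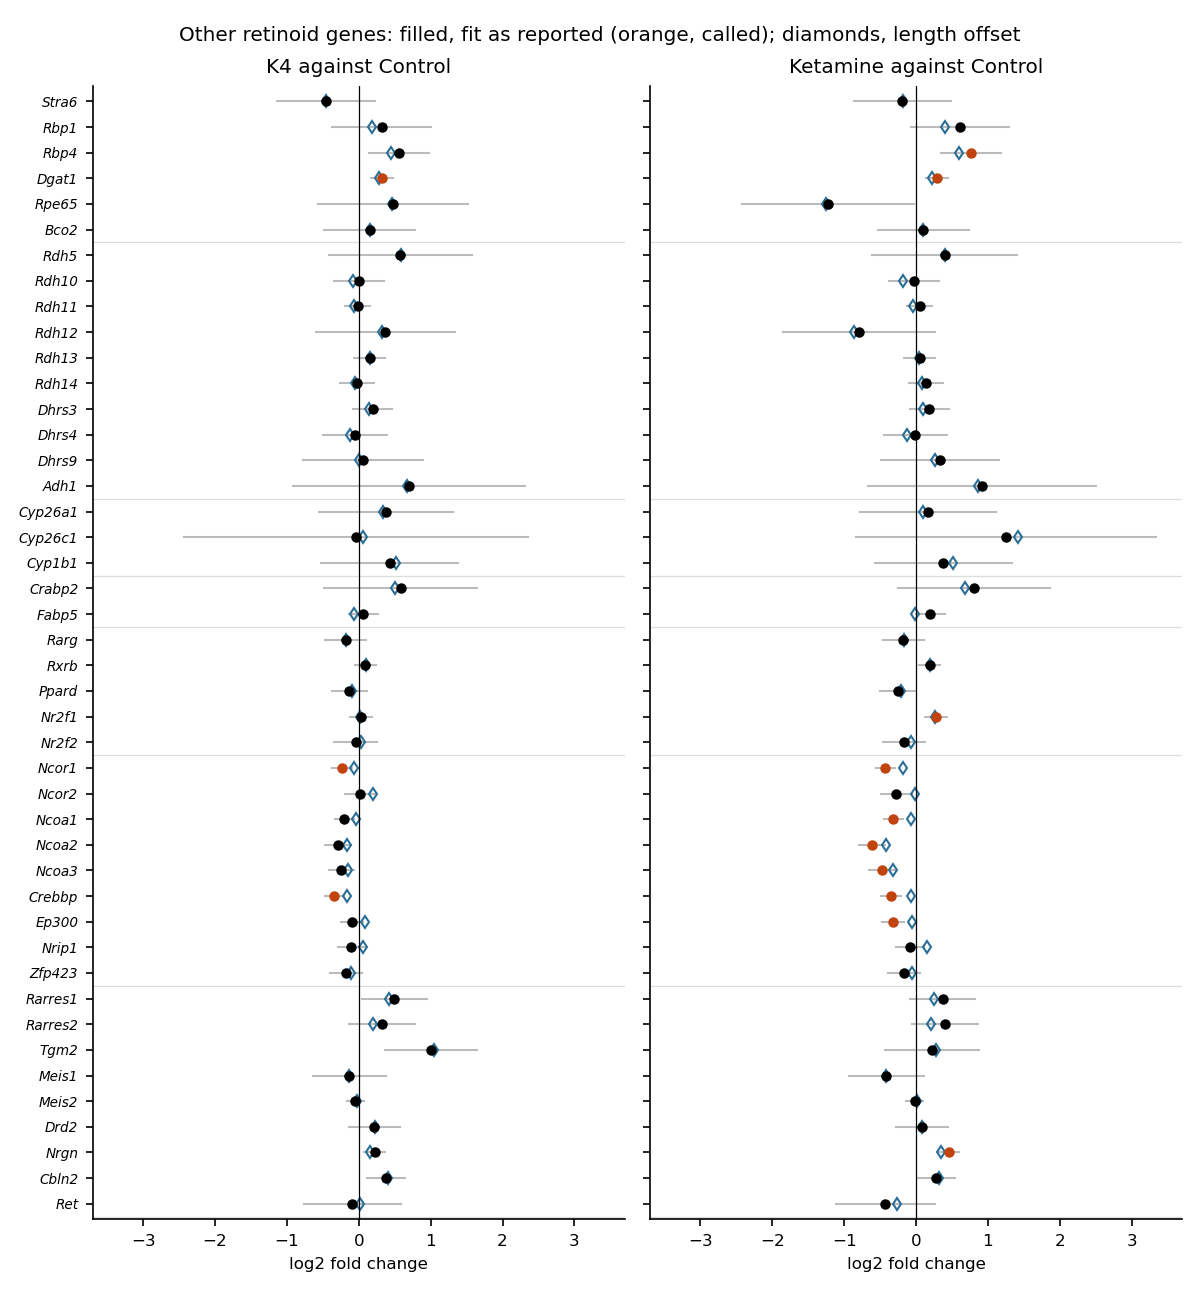
Log2 fold changes of the 44 other retinoid genes tested, in K4 against Control (left) and Ketamine against Control (right), grouped by role from uptake at the top to responsive genes at the bottom. Filled points with 95% intervals are the fit as reported (orange where called, 3 in K4 and 10 in Ketamine); open diamonds take out the length trend, after which 0 and 4 were called.

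Genes whose pattern was most like that of Cyp26b1 were sought among 15388 genes by Pearson's r of log2 CPM over the 9 libraries. The 8 highest were Hint3 (r = 0.947), Adamts1 (0.947), Tubgcp2 (0.934), Celf6 (0.931), Sprtn (0.923), LOC102549675 (0.917), Capn5 (0.906) and Pcgf2 (0.906), and the 4 lowest were Rbmx (−0.970), Bloc1s6 (−0.956), Naa50 (−0.937) and Cwf19l1 (−0.936). The libraries share their groups and depth, and these r values were picked as extremes, so they describe likeness alone. By deviations from each group's mean 0 of the 8 were still among the 8 highest, and by Spearman's rho 2 were. Adamts1, a secreted metalloprotease gene, had 5.17 ± 0.384 CPM in K4, against 3.62 ± 0.226 CPM in Ketamine and 3.45 ± 0.363 CPM in Control.

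Within the 9 genes, r with Cyp26b1 ran from 0.52 for Aldh1a1 and 0.41 for Aldh1a2 down to −0.60 for Rarb over the same 9 libraries. The nearest protein-coding genes on either side of Cyp26b1 in GRCr8 overlapped between all groups. Dysf, which encodes a membrane repair protein, had 2.21 ± 1.03 CPM in K4, 1.90 ± 0.672 CPM in Ketamine and 1.79 ± 0.555 CPM in Control, and differed by 0.31 for K4 against Control (interval −0.45 to 1.07, adjusted p = 0.65). Exoc6b, an exocyst subunit gene, differed by −0.04 (interval −0.17 to 0.09, adjusted p = 0.718).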

How the data were processed

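Per the labels' protocols, libraries were made from total mPFC RNA with a stranded poly(A) kit. The tools named in the submitters' processing notes are HISAT2 2.1.0, StringTie 2.1.3b, bcl2fastq 2.20.0 and Trimmomatic, and the build is rn6. The counting tool, as well as its strand setting, was not given in the sources used here, so counts of overlapping or antisense genes are uncertain. The authors deposited raw counts per gene and, per the file headers, FPKM and TPM per library. Counts were analysed with R 4.3.3 and edgeR 4.0.16 (TMM normalisation, filterByExpr by group with a minimum count of 10 and a minimum total of 15, robust quasi-likelihood fit of all 9 libraries, F test, Benjamini-Hochberg over 18047 genes, called below 0.05). CPM are normalised by TMM, and intervals cover 95%. The depths and counts printed beside each gene limit the precision of its values.

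The length fit adds each library's smooth trend (lowess, span 0.3) over implied length, the deposited count divided by FPKM, to the offsets. Alternatives used DESeq2 1.42.0, limma 3.58.1 on log2 FPKM with pseudocounts of 0.1 and 1, other scalings and filters, and left-out libraries. The fits were tested on simulated data. Promoters and gene order came from RefSeq GRCr8, and no rn6 coordinates were used.

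The members and lists were chosen with earlier results of these data known. Named beside the 9 genes are each other retinoid gene called in any comparison, the smallest p in each role with none called, and the 8 highest and 4 lowest genes by r with Cyp26b1 among genes averaging 0 or more on the log2 CPM scale. Cyp26a1, Crabp2, Tgm2, Cbln2 and the genes printed beside a marker list were chosen after their values were seen.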

Additional observations from a re-analysis of the deposited data

How the results depend on the processing

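Calls for K4 against Control (1095) moved to 430 with the length offset, 497 with the replicate block and length offset together, 1890 by DESeq2, 437 and 445 by limma on log2(FPKM + 0.1) and log2(FPKM + 1), 713 with a mean FPKM of at least 1, 452 with only the 6 libraries compared, and 174 to 1548 with 1 library left out, the lowest without Control replicate 1. Without K4 replicate 1, 2 or 3 they were 239, 346 and 228. Calls for Ketamine against Control (3013) moved to 1372 with the length offset, 1374 with block and length offset, and 1177 to 3191 with 1 library left out, the lowest without Ketamine replicate 2 (1811 without Control replicate 1 and 1556 without Ketamine replicate 3). Calls for K4 against Ketamine (0) moved to 1 with the block, 1 with block and length offset, 6 with no filter on low counts, 70 by DESeq2, 1, 2 and 1 in the limma fits on FPKM, 27 with only 6 libraries, and 0 to 27 with 1 left out.

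Cyp26b1 kept its direction in every alternative. On log2(FPKM + 1), which shrinks low genes, its difference was 0.97 for K4 against Control and 0.71 for K4 against Ketamine. Among 501 values of the other 8 members under alternatives 3 were called, all of Aldh1a2 and printed above, and 36 differed in sign from the value reported, none where that value was above 0.3 in size.

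The other retinoid genes called for K4 against Control (3) became 0 with the length offset, 5 with the block, 2 with block and length offset, 9 by DESeq2, 1 in each limma fit on FPKM, 1 with only 6 libraries, and 0 to 5 with 1 library left out. For Ketamine against Control (10) they became 4 with the length offset, 5 with block and length offset and 7 to 11 with 1 left out, and for K4 against Ketamine (0) 1 by DESeq2. Of the 8 genes most like Cyp26b1, 2 remained by Spearman's rho, 0 by deviations from group means, 2 on log2(FPKM + 0.1) and 1 to 6 with 1 library left out. Apart from the length offset and the left-out libraries, whose construction shows the change made, the cause was not tested.

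Replicate numbers are shared between groups, and libraries with the same number correlated at 0.002 to 0.106 in their deviations from the group means. Each K4 library correlated best with the Ketamine library of its own number. Against Control, K4 replicate 3 correlated best with replicate 1 and Ketamine replicate 2 with replicate 3, and the others with their own number. These low correlations do not settle whether the numbers pair the samples. The replicate block alone gave 1168 calls for K4 and 3191 for Ketamine against Control. Counts below about 60 reads a library, as for Aldh1a3, limit what differences could be detected.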
